A study of Mus musculus with 7 samples.

Results

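The oligosaccharyltransferase is the enzyme of the endoplasmic reticulum (ER) that moves a preassembled glycan onto asparagines of proteins entering the ER. Its transcripts were followed in sorted mouse long-term haematopoietic stem cells through 10 genes chosen by symbol: Stt3a, Stt3b, Rpn1, Rpn2, Ddost, Dad1, Ost4, Ostc, Magt1 and Tusc3. All 10 were found among the 19649 genes of the deposited table, and all 10 passed the filter for testing (10 or more normalized counts in 3 or more of the libraries), which 16047 genes passed. The wild-type group was 4 libraries from mice with the genotype Calr +/+ and MxCre, numbered 1 to 4; wild-type 1 and 2 are called the first pair and wild-type 3 and 4 the second. The mutant group was 3 libraries from mice labelled Calr fl/fl (Calr del52/del52) with MxCre, numbered 1 to 3. The strain is a CALR knock-in crossed with MxCre mice, so both groups carry MxCre, a Cre recombinase under an interferon-inducible promoter that is active beyond blood stem cells. Both groups were induced with pI:pC, a double-stranded RNA that raises interferon, had no other treatment, and were sorted 14 days after induction began for CD150, Sca-1 and Kit on the surface and for the lack of CD48 and lineage markers. The labels give no age for the mice. Separate animals are not stated for the libraries, so the p-values measure the spread between these libraries, which may be technical.

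Mammalian cells build the enzyme in 2 forms. The form with the catalytic subunit STT3A sits at the protein translocon and glycosylates chains while they are being made. The form with STT3B acts later, reaches sites that were skipped, and carries a thioredoxin-like subunit, MAGT1 or TUSC3. The ribophorins RPN1 and RPN2, DDOST, DAD1, OST4 and TMEM258 are shared, while OSTC and KRTCAP2 belong to the STT3A form. The glycan that the enzyme attaches is trimmed to the form read by calreticulin, the lectin chaperone encoded by Calr, and mutant calreticulin of the del52 kind is known to engage the glycosylated thrombopoietin receptor.

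Each library held 21325340 to 28710304 counted reads. Calr itself had 16783 ± 1259 normalized counts in wild-type (SD, n = 4) and 15093 ± 767 in mutant libraries (SD, n = 3). Its highest mutant value (15724, mutant 2) lay just under its lowest wild-type value (15922, wild-type 3). Of all tested genes, 4.34% were lower in the mutant group without overlap. The allele alters the coding sequence and predicts no direction for the count, so the Calr level cannot check the labels. Stem cell markers summed to 42572 to 80051 normalized counts in wild-type and 42990 to 47914 in mutant libraries, with 12 of 12 in the table and none at 0. The second wild-type pair held 71900.3 and 80051 of these and the other 5 libraries at most 47914. Mitochondrial genes took 0.363% and 0.412% of the reads in the second pair and 0.681% to 1.17% elsewhere. Wild-type 3 and 4 stood apart from the other 5 libraries: limma, a linear model fitted across all genes, called 8810 of 16047 genes (54.9%) between them and wild-type 1 and 2 at an adjusted p under 0.05, 4749 higher (29.6%) and 4061 lower (25.3%). For this reason each result is given against all 4 wild-type libraries and against each pair. The titles of wild-type 3 and 4 and of mutant 1 and 2 carry numbers of one series. The labels do not say whether this marks a batch.

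The start of some genes holds letters that ER stress factors are known to read, so the RefSeq promoter windows (GRCm38.p6, 250 bases before to 50 bases after the start) were searched on both strands. Windows were found for 8 of the 10 genes. The 4 below are from the genes the results turn on, and each shows the bases before the annotated gene, 5′ to 3′ on the gene's strand, with CCAAT and CCACG matches on either strand in capitals. Rpn1 is at chr6:88084223-88084472 (plus strand), Stt3b at chr9:115310469-115310718 (minus strand), Ost4 at chr5:30907789-30908038 (minus strand) and Magt1 at chrX:106011907-106012052 (minus strand).
Rpn1: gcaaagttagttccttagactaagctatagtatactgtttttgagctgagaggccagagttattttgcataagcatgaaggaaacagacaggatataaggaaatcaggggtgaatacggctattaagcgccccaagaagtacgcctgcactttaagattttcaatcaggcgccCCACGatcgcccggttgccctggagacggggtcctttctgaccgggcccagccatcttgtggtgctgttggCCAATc
Stt3b: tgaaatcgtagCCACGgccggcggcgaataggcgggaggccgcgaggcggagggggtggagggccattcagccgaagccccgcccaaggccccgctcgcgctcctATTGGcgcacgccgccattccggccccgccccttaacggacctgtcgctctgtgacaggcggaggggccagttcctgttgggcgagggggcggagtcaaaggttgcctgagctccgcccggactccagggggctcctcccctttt
Ost4: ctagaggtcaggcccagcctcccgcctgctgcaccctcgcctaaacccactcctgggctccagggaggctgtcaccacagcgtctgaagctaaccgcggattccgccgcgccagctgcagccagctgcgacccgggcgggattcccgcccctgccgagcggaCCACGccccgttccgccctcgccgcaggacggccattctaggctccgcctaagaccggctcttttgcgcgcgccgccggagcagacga
Magt1: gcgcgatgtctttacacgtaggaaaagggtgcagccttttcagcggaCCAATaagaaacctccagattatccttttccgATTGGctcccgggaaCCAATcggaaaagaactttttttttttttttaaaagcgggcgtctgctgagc

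No window of these 8 genes held the ER stress element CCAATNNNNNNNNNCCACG, which 39 of 32851 windows held (0.119%), nor the second ER stress element ATTGGNCCACG, held by 12 (0.0365%). None held TGACGTGG, the unfolded protein response element, found in 222 windows (0.676%), or the ATF4 letters TGATGNAAT, found in 317 (0.965%). The short CCAAT box, which is part of the first element and, on the other strand, of the second, is in 37.4% of all windows. It was present 4 times in the Magt1 window, of which 3 are in the printed bases, 3 times in a window of Rpn2 and in that of Ddost, 2 times in that of Dad1, and once each in those of Rpn1, Stt3a and Stt3b, and it was absent from that of Ost4. CCACG, the other part of both elements, is in 32.8% of windows and occurred in those of Rpn1, Stt3a, Stt3b, Ost4, Ddost and Dad1 but not in those of Rpn2 and Magt1. Of the further subunits, a window of Krtcap2 held the second element from 17 to 27 bases after its start. These matches describe letters only.

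Over all 7 libraries, 8 of the 10 genes were higher and 2 were lower in the mutant group, with a median log2 difference of 0.33 against 0.00 for all tested genes. None passed limma's test, which called 0 of 16047 genes (0%) and found 1365 at an unadjusted p under 0.05. The count tests on reads recovered from the table also called none of the 10: edgeR called 0 genes, with 1639 at an unadjusted p under 0.05, and DESeq2 called 107 (0.667%). The 1 gene whose mutant libraries were all above all wild-type libraries was Magt1, and no gene had all of them below; over all tested genes these shares were 5.23% and 4.34%. Rpn2, at a difference of 0.00, was on the lower side with TMM or quantile scaling, edgeR or summed FPKM, which makes the split 7 higher and 3 lower. In the plot of the 10 genes by library, wild-type 3 and 4 sit away from wild-type 1 and 2 in most panels.

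**Figure D1:**
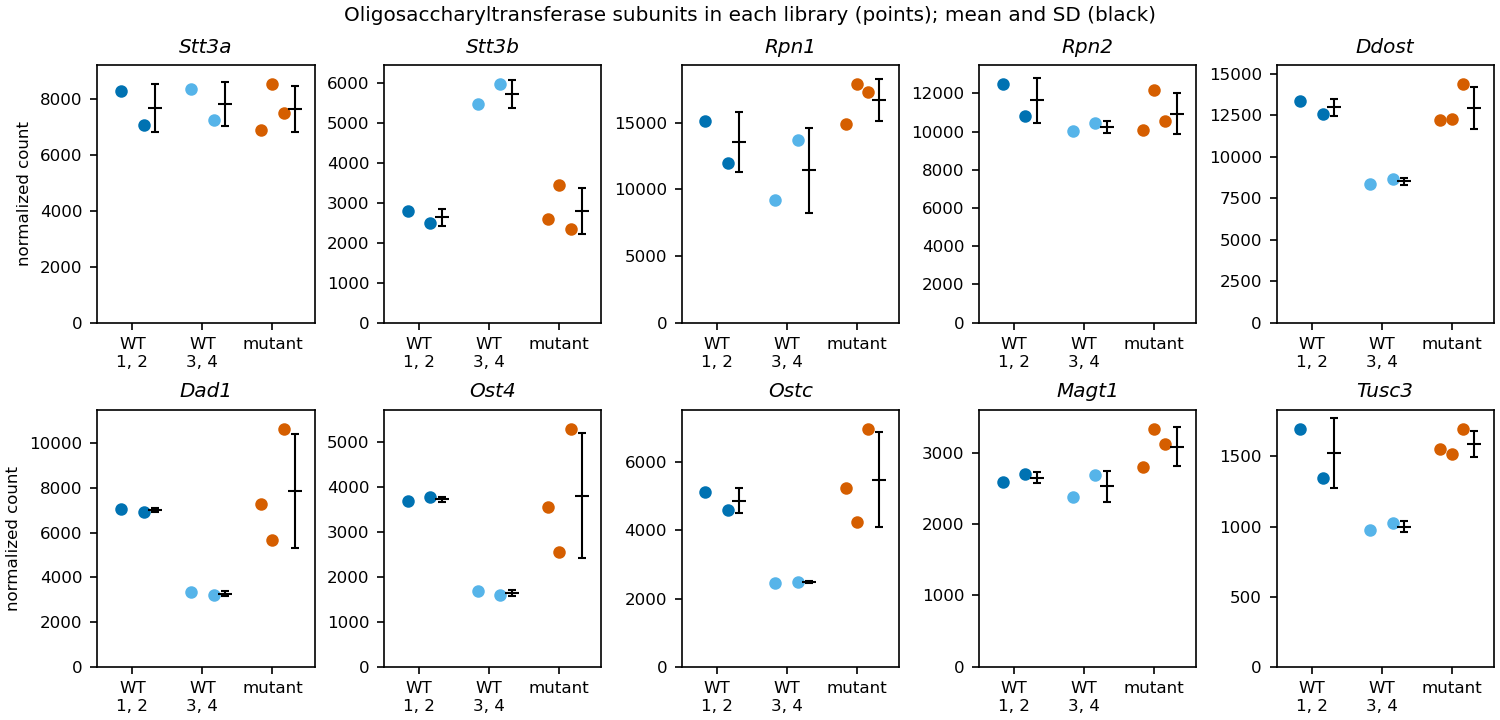
Normalized counts (linear axis from 0) of the 10 subunits in wild-type 1 and 2, wild-type 3 and 4 and mutant 1 to 3; each point is a library, and black marks give the mean and SD of each set. Dad1, Ost4, Ostc, Ddost and Tusc3 in wild-type 3 and 4 lie below every other library, Stt3b lies above, and for Stt3a all sets overlap.

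The catalytic subunits had different patterns over the libraries. Stt3a (ENSMUSG00000032116.18, chromosome 9, 36729344 to 36767679, minus strand, GRCm38) had normalized counts of 8281 and 7083 in the first wild-type pair, 8373 and 7256 in the second, and 6885, 8525 and 7503 in the mutant libraries. The sets overlapped in every combination, and the log2 difference was -0.02 (SE 0.16) over all libraries, -0.01 (SE 0.16) against wild-type 1 and 2 and -0.04 (SE 0.16) against wild-type 3 and 4. Stt3b (ENSMUSG00000032437.10, chromosome 9, 115242581 to 115310421, minus strand) had normalized counts of 2779 and 2482 in the first wild-type pair, 5459 and 5956 in the second, and 2579, 3445 and 2343 in the mutant libraries. Wild-type 3 and 4 were high, and the mutant libraries lay around wild-type 1 and 2. Its log2 difference was -0.49 (SE 0.35, limma adjusted p = 0.544) over all libraries and 0.07 (SE 0.19, adjusted p = 0.942) against wild-type 1 and 2. Against wild-type 3 and 4 it was lower by limma, at -1.05 (SE 0.19, adjusted p = 0.0046), and without wild-type 4 this call was lost (adjusted p = 0.0535).

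Rpn1, a shared subunit, differed from wild-type 1 and 2 by a log2 value of 0.31, but its place among the members turned on single libraries: without mutant 2, Dad1 (0.33) stood above Rpn1 (0.26), and without wild-type 2, Magt1 (0.25) did (Rpn1 0.14). Rpn1 (ENSMUSG00000030062.7, chromosome 6, 88084482 to 88105304, plus strand) encodes ribophorin I, which holds substrates near the catalytic site. It had normalized counts of 15138 and 11947 in the first wild-type pair, 9178 and 13702 in the second, and 14900.2, 17893 and 17312 in the mutant libraries. Mutant 2 and 3 were above every wild-type library, while mutant 1 lay just below wild-type 1. Mean levels were 12491 ± 2565 (SD, n = 4) and 16702 ± 1587 (SD, n = 3), a log2 difference of 0.44 (SE 0.20) with an unadjusted p of 0.0628 and an adjusted p of 0.538 by limma. The log2 difference was 0.31 (SE 0.17, adjusted p = 0.628) against wild-type 1 and 2 and 0.57 (SE 0.20, adjusted p = 0.0472) against wild-type 3 and 4. That last call was close to the threshold: it was lost with TMM scaling (adjusted p = 0.0549), quantile scaling (0.327), edgeR (0.0661) and no filter (0.0527), and without wild-type 3 (0.428), wild-type 4 (0.0536), mutant 1 (0.0837) or mutant 3 (0.0683).

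Rpn2 (ENSMUSG00000027642.15, chromosome 2, 157279017 to 157326319, plus strand), which encodes ribophorin II, had normalized counts of 12473 and 10805 in the first wild-type pair, 10005 and 10448.5 in the second, and 10104, 12159 and 10546 in the mutant libraries. The groups overlapped throughout, with log2 differences of 0.00 (SE 0.16) over all libraries, -0.09 (SE 0.16) against wild-type 1 and 2 and 0.09 (SE 0.15) against wild-type 3 and 4; the last is -0.16 with quantile scaling. Ddost (ENSMUSG00000028757.4, chromosome 4, 138304730 to 138312628, plus strand), a shared membrane subunit needed for assembly, had normalized counts of 13345 and 12582 in the first wild-type pair, 8355 and 8661 in the second, and 12184, 12243 and 14361 in the mutant libraries. Here wild-type 3 and 4 were low and the other 5 libraries overlapped. The log2 difference was 0.30 (SE 0.22, limma adjusted p = 0.548) over all libraries, -0.01 (SE 0.16) against wild-type 1 and 2 and 0.60 (SE 0.15, adjusted p = 0.0136) against wild-type 3 and 4. The last call was lost without wild-type 3, wild-type 4 or mutant 1 (adjusted p = 0.126, 0.101 and 0.0517).

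The small shared subunits split widely by wild-type pair. Dad1 (ENSMUSG00000022174.8, chromosome 14, 54235479 to 54254104, minus strand) encodes a membrane subunit named for the cell death that follows its loss. It had normalized counts of 7078 and 6933 in the first wild-type pair, 3345 and 3202 in the second, and 7293, 5663 and 10659 in the mutant libraries. Wild-type 3 and 4 were below all other libraries, and mutant 2 and 3 lay on either side of wild-type 1 and 2. The log2 difference was 0.67 (SE 0.36, limma adjusted p = 0.538) over all libraries, 0.12 (SE 0.24, adjusted p = 0.923) against wild-type 1 and 2 and 1.22 (SE 0.24, adjusted p = 0.0066) against wild-type 3 and 4. Ost4 (ENSMUSG00000038803.7, chromosome 5, 30905885 to 30907788, minus strand), a very short protein that steadies the catalytic subunit, had normalized counts of 3689 and 3766 in the first wild-type pair, 1689 and 1589.9 in the second, and 3555, 2558 and 5297 in the mutant libraries. Wild-type 3 and 4 were again lowest and mutant 3 highest, with differences of 0.56 (SE 0.40, adjusted p = 0.544), -0.03 (SE 0.26, adjusted p = 0.983) and 1.15 (SE 0.27, adjusted p = 0.0111) in the same order. Over all libraries the difference of Ost4 was 0.29 without mutant 3 and 0.81 without mutant 2. Tmem258 (ENSMUSG00000036372.14, chromosome 19, 10204014 to 10207824, plus strand), a further shared subunit outside the 10, had normalized counts of 4541 and 4552 in the first wild-type pair, 1979 and 1977 in the second, and 4994, 3272 and 6452 in the mutant libraries. It too was low in wild-type 3 and 4, with a log2 difference of 0.06 (SE 0.25) against wild-type 1 and 2 and 1.26 (SE 0.26, adjusted p = 0.0070) against wild-type 3 and 4. The calls of Dad1, Ost4 and Tmem258 against wild-type 3 and 4 were lost when either library of that pair was left out (adjusted p = 0.0563 to 0.0788).

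Ostc and Krtcap2, which belong to the STT3A form, gave the same picture, while for Stt3a itself all sets overlapped. Ostc (ENSMUSG00000041084.8, chromosome 3, 130695912 to 130709444, minus strand), which joins the enzyme to the translocon, had normalized counts of 5123 and 4605 in the first wild-type pair, 2462 and 2498 in the second, and 5249, 4232 and 6984 in the mutant libraries. Wild-type 3 and 4 were below all others, and the mutant libraries spanned wild-type 1 and 2. The log2 difference was 0.63 (SE 0.32, limma adjusted p = 0.538) over all libraries, 0.15 (SE 0.21, adjusted p = 0.886) against wild-type 1 and 2 and 1.12 (SE 0.21, adjusted p = 0.0055) against wild-type 3 and 4, the last lost without wild-type 3 (adjusted p = 0.0567). Krtcap2 (ENSMUSG00000042747.12, chromosome 3, 89245966 to 89249906, plus strand), the other subunit of this form and not among the 10, had normalized counts of 6841 and 6145 in the first wild-type pair, 2659 and 2727 in the second, and 6583, 4619 and 9088 in the mutant libraries. The second wild-type pair was again lowest, with log2 differences of 0.01 (SE 0.25) against wild-type 1 and 2 and 1.27 (SE 0.25, adjusted p = 0.0066) against wild-type 3 and 4, a call lost without either library of that pair (adjusted p = 0.0598 and 0.0526).

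The exchangeable oxidoreductase subunits of the STT3B form had different orders of libraries. Magt1 (ENSMUSG00000031232.16, chromosome X, 105968084 to 106011906, minus strand), linked to magnesium levels and immune deficiency in people, had normalized counts of 2594 and 2704 in the first wild-type pair, 2379.9 and 2684 in the second, and 2794, 3341 and 3122 in the mutant libraries. It was the member whose mutant libraries were all above all 4 wild-type libraries, and both wild-type pairs were at like levels. Mean levels were 2590.5 ± 148 (SD, n = 4) and 3086 ± 275 (SD, n = 3), 1.19 times as high, and the log2 difference was 0.25 (SE 0.15, limma adjusted p = 0.538) over all libraries. It was 0.22 (SE 0.15, adjusted p = 0.714) against wild-type 1 and 2 and 0.28 (SE 0.15, adjusted p = 0.159) against wild-type 3 and 4, so no comparison called it. In FPKM, a measure per transcript length, the groups overlapped, at 14.5 and 16.4 in the first wild-type pair, 10.7 and 14.5 in the second, and 12.5, 17.9 and 17.2 in the mutant libraries. Tusc3 (ENSMUSG00000039530.17, chromosome 8, 39005845 to 39165114, plus strand), the alternative to Magt1, had normalized counts of 1699 and 1347 in the first wild-type pair, 974 and 1026 in the second, and 1554, 1519.8 and 1694 in the mutant libraries. Wild-type 3 and 4 were low and the mutant libraries lay within wild-type 1 and 2. The log2 difference was 0.37 (SE 0.22, adjusted p = 0.538) over all libraries, 0.07 (SE 0.17, adjusted p = 0.935) against wild-type 1 and 2 and 0.67 (SE 0.15, adjusted p = 0.0090) against wild-type 3 and 4, the last lost without wild-type 3 or 4 (adjusted p = 0.0993 and 0.0747).

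The count of members called therefore turned on the wild-type libraries chosen. Against wild-type 1 and 2, 6 members were higher and 4 lower with a median log2 difference of 0.07, and limma called none of them and 51 genes in all (0.318%). Groups did not overlap in that comparison for 1 member, Magt1, against 13.9% of tested genes higher and 12.4% lower. Against wild-type 3 and 4 the median was 0.58, and 6 members were called higher and 1, Stt3b, lower, where limma called 6828 genes (42.6%), 3165 higher (19.7%) and 3663 lower (22.8%). Without overlap, 7 members were higher and 1 lower there, while 33.8% of tested genes were higher and 33.8% lower in that way. Leaving out wild-type 3 or wild-type 4 leaves a lone wild-type library, which is assumed to vary like the mutant ones. Most calls among the members were then lost, and the median of the members was 0.43 without wild-type 3 and 0.66 without wild-type 4. Leaving out mutant 1 left 4 members called higher and 1 lower, and 4254 genes in all, 1653 higher and 2601 lower. With mutant 3 left out, mutant 1 and 2 are set against the wild-type pair whose title numbers lie close to theirs. There 5 members were called higher and 1 lower. In that fit 6010 of 16047 genes were called, 2631 higher and 3379 lower. Comparisons here share libraries and are not independent of each other.

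**Figure D2:**
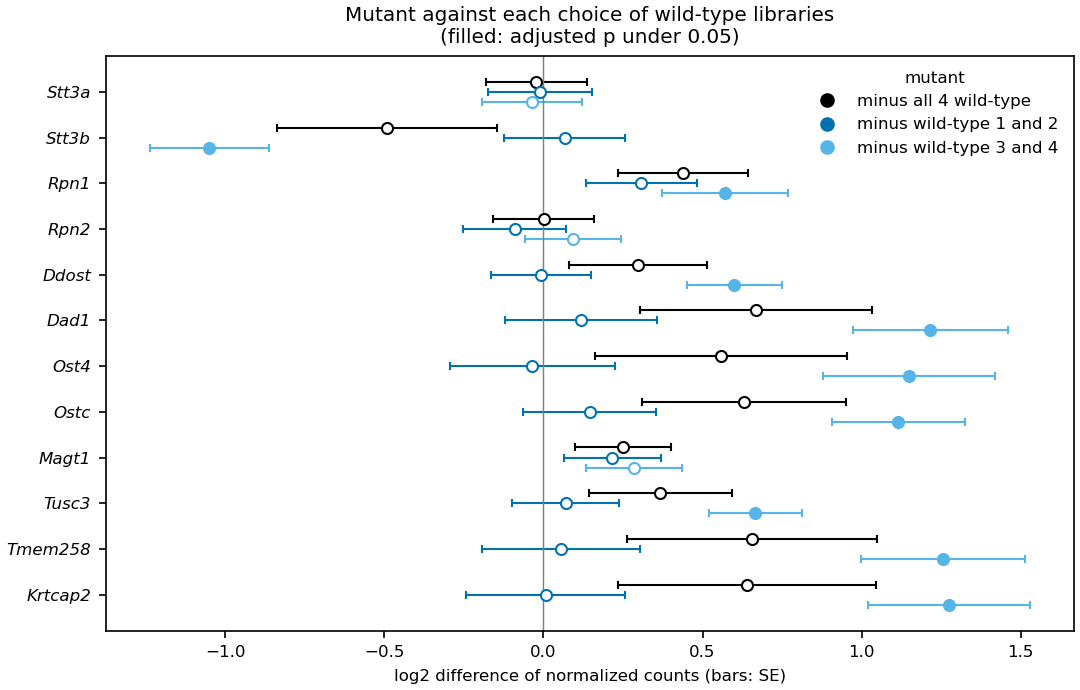
Log2 differences of normalized counts (mutant minus wild-type, bars are SE) for the 10 subunits and for Tmem258 and Krtcap2, against all 4 wild-type libraries (black), wild-type 1 and 2 (dark blue) and wild-type 3 and 4 (light blue); filled points passed limma's adjusted p of 0.05. All filled points belong to the comparison with wild-type 3 and 4, and the dark blue points lie between -0.09 and 0.31.

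The wild-type pairs were compared directly with each other. Of the 10 genes, Stt3b was called higher in wild-type 3 and 4 (log2 difference 1.12, SE 0.10) and 5 were called lower: Ost4 (-1.19, SE 0.10), Dad1 (-1.10, SE 0.09), Ostc (-0.97, SE 0.10), Ddost (-0.61, SE 0.10) and Tusc3 (-0.60, SE 0.13), beside the 29.6% of tested genes called higher and 25.3% called lower. The median was -0.43. Stt3a (0.03), Magt1 (-0.07), Rpn2 (-0.18) and Rpn1 (-0.26, adjusted p = 0.256) were not called; Rpn1 was called without wild-type 4 (-0.55, adjusted p = 0.0151) and had 0.03 without wild-type 3, the library lowest in Rpn1.

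These differences were set beside transcript length. The mean length of a gene's transcripts, weighted by FPKM, was 625 nucleotides for Ost4, 880 for Dad1 and 1073 for Ostc, against 2732 for Stt3a and 4221 for Stt3b. The Stt3a value is a mean of unlike forms, chiefly a processed transcript of 858 nucleotides and a coding form of 5867. By that coding form alone, Stt3a would fall in the class over 4000 nucleotides used below. Among tested genes with a known transcript length (10760 of 16047), those under 1000 nucleotides, which include Dad1 and Ost4, had a median log2 difference of -1.0 between wild-type 3 and 4 and wild-type 1 and 2. Genes of 1000 to 2000 nucleotides (with Ostc, Magt1 and Tusc3) had -0.49, those of 2000 to 4000 (with Stt3a, Rpn1, Rpn2 and Ddost) had 0.37, and those over 4000 (with Stt3b) had 1.21. In the mutant group less wild-type 3 and 4 the same classes had 1.04, 0.47, -0.35 and -1.16, and less wild-type 1 and 2 they had 0.03, -0.03, 0.02 and 0.03. Against wild-type 3 and 4, Dad1 (1.22), Ost4 (1.15) and Stt3b (-1.05) thus had differences close to the medians of their length classes. Ostc (1.12) and Tusc3 (0.67) were above their class and Magt1 (0.28) was below it. All 4 members in the class of 2000 to 4000 nucleotides lay above its median of -0.35, Ddost (0.60), Rpn1 (0.57) and Rpn2 (0.09) on the other side of zero and Stt3a at -0.04. Fitted per library, the slope of log2 deviations on log2 exonic length was 0.24 in both libraries of the second wild-type pair, -0.10 and -0.11 in the first pair, and -0.12, 0.0098 and -0.18 in mutant 1 to 3. With this slope as a covariate over all 7 libraries, the median of the 10 genes was 0.07, and Rpn1 had 0.35, Magt1 0.24, Dad1 0.12, Stt3b 0.04 and Ost4 -0.05; limma then called 127 genes and none of the 10. The part of length in these results was not tested beyond these values.

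**Figure D3:**
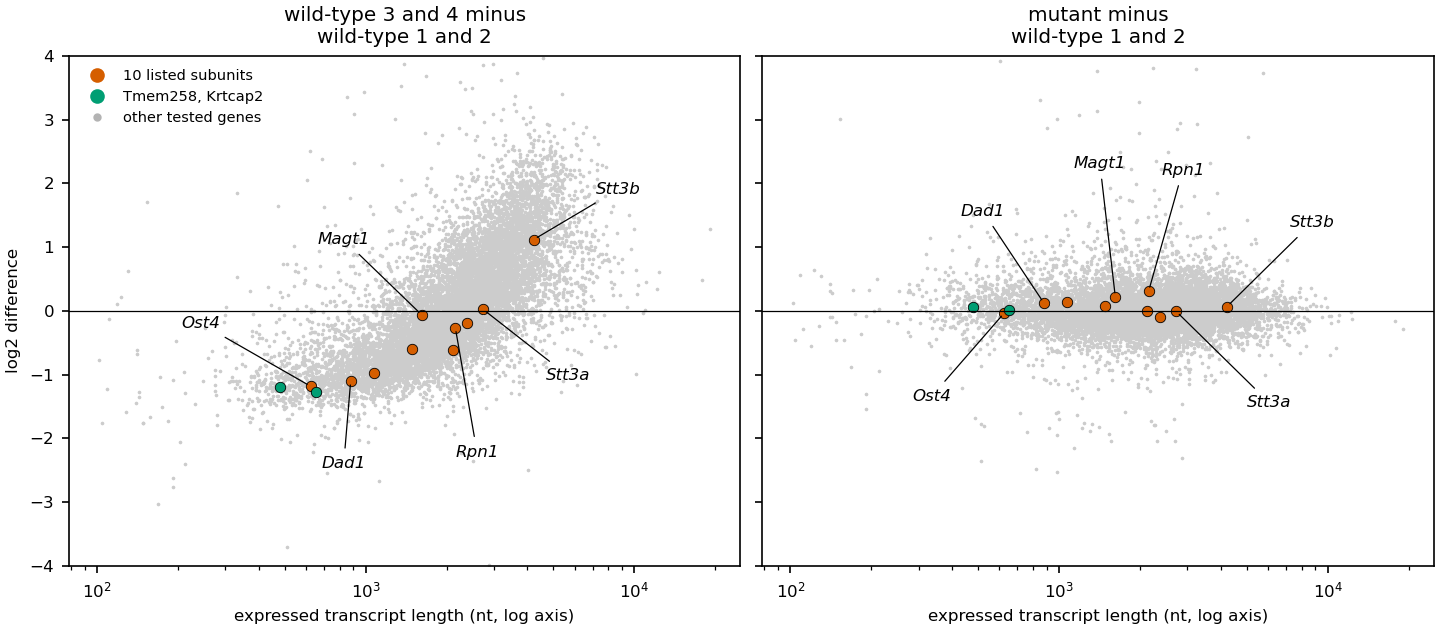
Log2 difference of each tested gene with a known transcript length (grey) against that length in nucleotides (log axis), for wild-type 3 and 4 minus wild-type 1 and 2 (left) and mutant minus wild-type 1 and 2 (right); the 10 subunits are orange, Tmem258 and Krtcap2 green. On the left the 10 subunits lie between Ost4 at -1.19 and Stt3b at 1.12, and Tmem258 (-1.20) and Krtcap2 (-1.27) lie just below Ost4. On the right all orange and green points lie between -0.09 and 0.31. A few grey points lie outside the axis.

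Ratios within a library compare partners without the scaling between libraries, but not without length. The log2 ratio of Stt3a to Stt3b normalized counts was 1.58 and 1.51 in the first wild-type pair, 0.62 and 0.28 in the second, and 1.42, 1.31 and 1.68 in the mutant libraries, so the mutant libraries lay around wild-type 1 and 2 and above wild-type 3 and 4. The ratio of Magt1 to Tusc3 was 0.61 and 1.005 in the first wild-type pair, 1.29 and 1.39 in the second, and 0.85, 1.14 and 0.88 in the mutant libraries, so the groups overlapped. The ratio of Rpn1 to Rpn2, 2 genes of like mean transcript length weighted by FPKM (2156 and 2377 nucleotides), was looked at after the values were seen and has no test. The Rpn1 mean includes forms of 855 and 789 nucleotides beside its coding form of 3633, while the leading Rpn2 form has 2314. The likeness thus depends on how reads were divided between forms, which was not tested. The ratio was 0.28 and 0.14 in the first wild-type pair, -0.12 and 0.39 in the second, and 0.56, 0.56 and 0.72 in the mutant libraries. Every mutant library was above every wild-type library, with means of 0.17 ± 0.22 (SD, n = 4) and 0.61 ± 0.09 (SD, n = 3). The first wild-type pair averaged 0.21 and the second 0.13, and the difference of 0.44 between groups stayed between 0.34 and 0.51 with any 1 library left out. Such a separation is not rare: the groups did not overlap for 10.4% of the pairs of tested genes and for 4 of the 45 pairs of members (8.89%), the others being Stt3a to Rpn1, Stt3a to Magt1 and Rpn2 to Magt1. The ratio of Dad1 to Ddost, also looked at with no test, was -0.91 and -0.86 in the first wild-type pair, -1.32 and -1.44 in the second, and -0.74, -1.11 and -0.43 in the mutant libraries, so the groups overlapped.

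**Figure D4:**
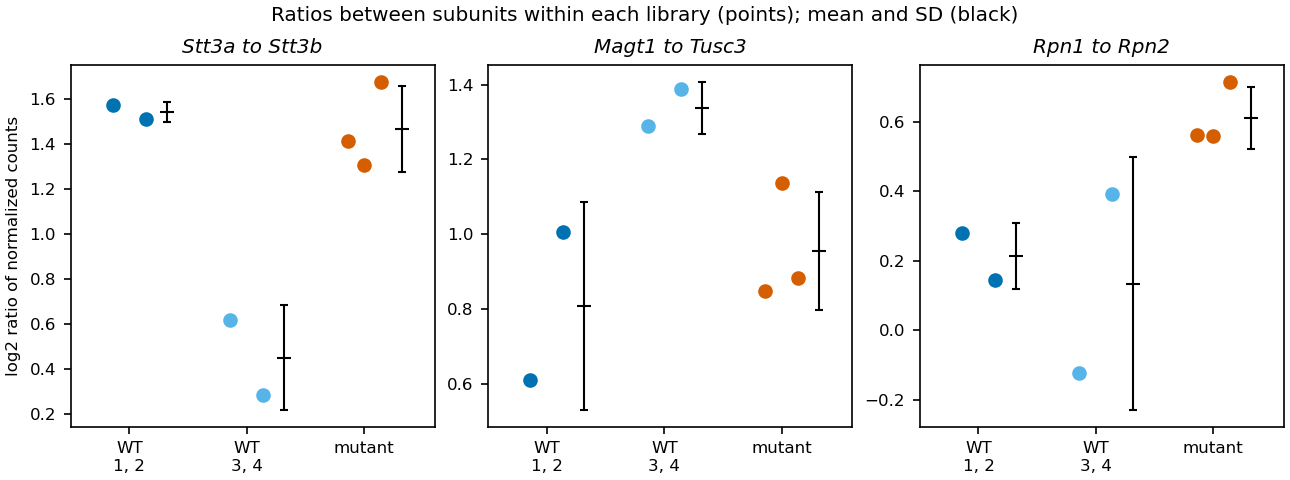
Log2 ratios of normalized counts between subunits in each library (points; black marks are mean and SD), for Stt3a to Stt3b, Magt1 to Tusc3 and Rpn1 to Rpn2; each panel has its own axis, which does not start at 0. The Rpn1 to Rpn2 ratio is 0.56 to 0.72 in mutant and -0.12 to 0.39 in wild-type libraries, and the other ratios overlap between the groups.

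Levels of different subunits were compared per transcript length, as FPKM summed over a gene's transcripts. In wild-type 1 and 2 the order of mean FPKM was Ost4 (319), Dad1 (306), Rpn1 (236), Ddost (233), Rpn2 (186), Ostc (174), Stt3a (112), Tusc3 (38.1), Stt3b (23.1) and Magt1 (15.4). Rpn1 and Ddost overlapped there, as did Rpn2 and Ostc, and the other neighbours did not. In wild-type 3 and 4 it was Rpn1 (209.9), Rpn2 (166), Ddost (154), Dad1 (143), Ost4 (138), Stt3a (103), Ostc (89.1), Stt3b (51.3), Tusc3 (24.9) and Magt1 (12.6), with overlap between Rpn1 and Rpn2. In the mutant libraries it was Dad1 (344), Ost4 (329.9), Rpn1 (294), Ddost (232), Ostc (196), Rpn2 (174), Stt3a (107), Tusc3 (39.4), Stt3b (24.6) and Magt1 (15.9). Dad1 and Ost4 overlapped in these, as did Ost4 and Rpn1, Ddost and Ostc, and Ostc and Rpn2. By these sums the shared subunits, Ostc and Stt3a had more FPKM than the subunits of the STT3B form in every set. For Stt3a and Rpn2 the sums include processed transcripts. In wild-type 3 and 4 the protein-coding Stt3a form of 5867 nucleotides alone had 44.6 and 39.3. The protein-coding Rpn2 form of 2756 nucleotides had 30.6 and 37.0, and both were below Stt3b (48.8 and 53.9). In the other libraries both forms were above Stt3b. Of 44 transcripts of the 10 genes, 26 reached the minimum for testing, an FPKM of 1 in 3 libraries; 15 were higher and 11 lower in the mutant group, and limma called none, as it called none of the 30156 transcripts tested (0%); 1 of the 26 had an unadjusted p under 0.05, and 2077 of all did.

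**Figure D5:**
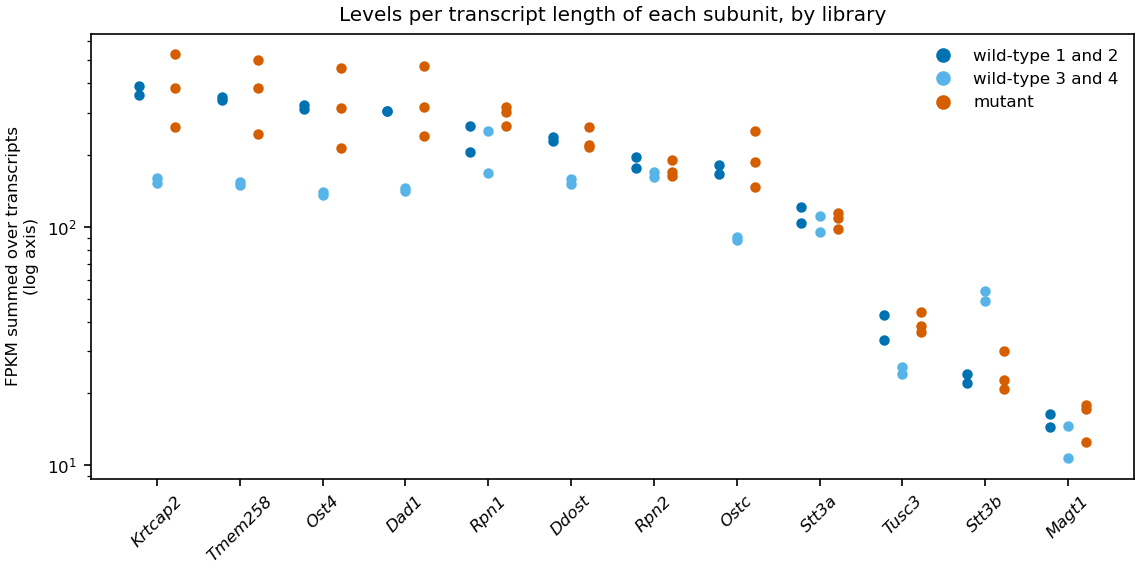
FPKM summed over the transcripts of each subunit (log axis), one point per library, in wild-type 1 and 2 (dark blue), wild-type 3 and 4 (light blue) and mutant (orange). Tusc3, Stt3b and Magt1 lie lowest in every set, and Stt3b in wild-type 3 and 4 (48.8 and 53.9) lies above its other libraries (20.9 to 30.1).

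Genes of the steps before and after the transfer were described from lists set by pathway. Limma called none of their members over all libraries or against wild-type 1 and 2. The 23 tested genes that build the lipid-linked glycan had a median log2 difference of 0.09 over all libraries, -0.02 against wild-type 1 and 2 and 0.20 against wild-type 3 and 4, where 8 were called higher and none lower. Dpm2 and Dpm3, subunits of dolichol-phosphate mannose synthase, had 1.0 (SE 0.20) and 1.20 (SE 0.27) against wild-type 3 and 4 but 0.11 and 0.10 against wild-type 1 and 2. Alg5, which makes dolichol-phosphate glucose, had 0.86 (SE 0.18) and 0.12, and Mpdu1, needed to use these dolichol sugars, had 0.68 (SE 0.14) and -0.02. The 11 genes of sugar nucleotide supply had medians of 0.00, 0.04 and 0.16 in the same order, with 2 called higher and 1 lower against wild-type 3 and 4. These were Pmm1, a phosphomannomutase (0.70, SE 0.19), Gnpnat1, which acetylates glucosamine phosphate (1.15, SE 0.35), and Gfpt1, the entry enzyme of the hexosamine pathway (-0.69, SE 0.18).

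The translocon and its TRAP complex, beside which the STT3A form works, had 12 tested genes with medians of 0.10, -0.05 and 0.25, and 5 were called higher and 2 lower against wild-type 3 and 4. Sec61b and Sec61g, the small translocon subunits, had 1.33 (SE 0.30) and 1.25 (SE 0.28) there but -0.01 and -0.12 against wild-type 1 and 2, and the TRAP subunits Ssr2 and Ssr4 had 0.86 (SE 0.18) and 1.09 (SE 0.24) but -0.08 and 0.01. The 5 genes of first glycan trimming and reglucosylation had medians of -0.49, -0.06 and -0.71, with 3 called lower and none higher against wild-type 3 and 4. They were Uggt1, the glucosyltransferase that senses folding (-1.10, SE 0.18), Ganab, the catalytic part of glucosidase II (-1.23, SE 0.26), and Mogs, glucosidase I (-0.71, SE 0.21). Against wild-type 1 and 2 these had -0.22, -0.06 and -0.27. The other 2 genes of the list, Prkcsh and Uggt2, were on the higher side against wild-type 3 and 4, with Prkcsh highest at 0.14. Uggt2 had 0.65 against wild-type 1 and 2. Of the 2 genes that remove glycans from released chains, Engase was called lower against wild-type 3 and 4 (-0.80, SE 0.26). In each list, the calls belonged to the comparison with wild-type 3 and 4, in which 42.6% of all tested genes were called.

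Markers of other blood cells were summed beside these values. The neutrophil and monocyte list (10 of 10 in the table, none at 0) summed to 45081 to 88703 normalized counts in wild-type and to 49933, 10936 and 13218 in mutant 1 to 3, so mutant 2 and 3 were low. The megakaryocyte list (6 of 6, none at 0) summed to 8721 to 20197 in wild-type and 6110 to 12568 in mutant libraries. The B cell list (4 of 5, Ebf1 at 0 in at least 1 library) gave 909 to 1609 and 1301 to 1788. The T cell list (3 of 5) gave 433 to 557 and 559 to 599, so its mutant sums lay just above all wild-type sums. The plasma cell (4 of 6, Tnfrsf17 at 0 in at least 1 library) and macrophage lists (5 of 5, Adgre1 likewise) overlapped between the groups. Both stayed between 315 and 747 in every library. In bulk cells, a change in the number of such cells and a change of RNA per cell cannot be told apart, and the part of these cells in the subunit values was not tested.

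Likeness to the catalytic subunits was measured as the root mean square difference of log2 values over the 7 libraries, each gene centred on its mean. The 3 genes most like Stt3a were Btbd1 (0.036), Ormdl3 (0.049) and Uck1 (0.051). Among the other listed subunits the nearest was Rpn2 (0.109) and the farthest Ost4 (0.639). For Stt3b the nearest genes were Zfp654 (0.049), Hnrnpul1 (0.049) and Gsk3a (0.051). All were high in wild-type 3 and 4, which follows from their choice by likeness to Stt3b, and limma called 29.6% of tested genes higher in that pair. Among the 10 subunits, the nearest to Stt3b was Stt3a (0.493) and the farthest Ost4 (1.10).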

How the data were processed

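The submitters' processing notes name STAR 2.7.3a, HTSeq 0.6.1, DESeq2 1.12.4, Cufflinks 2.2.1 and FastQC 0.11.7 and the build GRCm38; options are not known here. Per the labels' protocols, the kits were PicoPure for RNA, SMART-Seq v4 for cDNA and Swift 2S Plus for libraries, without strand, so reads of overlapping genes on opposite strands cannot be told apart. For genes, the authors deposited a signal, the normalized count in each library. All values (100%) were whole multiples of 1 step per library within a tolerance of 0.01, so whole reads were recovered; the count tests on them were added as alternatives. The second deposited table gave FPKM per transcript, estimated by the authors.

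Positions came from GENCODE vM21 (19193 of 19649 genes matched). Log2(normalized count + 1) was tested with limma 3.58.1 (R 4.3.3, variance trend, two-sided, Benjamini-Hochberg over all 16047 tested genes, threshold 0.05), each comparison fitted on its own libraries, and log2(FPKM + 1) likewise for transcripts reaching FPKM 1 in 3 libraries. A log2 difference is on this scale. The fits were tested on simulated counts that had no difference between the wild-type pairs. Over all libraries limma recovered 53% of 2-fold and 97% of 4-fold changes. Against wild-type 1 and 2 it recovered 24% and 91%, and against wild-type 3 and 4 it recovered 34% and 93%. Most 2-fold changes were thus missed against either pair. Alternatives were a pseudocount of 8 (0.1 for FPKM), no filter or a filter of 100, TMM or quantile scaling, edgeR 4.0.16, DESeq2 1.42.0, a 3-group fit, the length slope, summed FPKM and leaving out each library.

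Named genes were the members, Tmem258, Krtcap2, Calr, up to 4 genes of smallest p per pathway list called against a wild-type set, and the 3 nearest genes to Stt3a and Stt3b. Members and lists were chosen with earlier results of these data known, so lists have no test. Replicate numbers here are in accession order, and the labels give the groups no shared numbers. One marker list is not reported here.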

Additional observations from a re-analysis of the deposited data

How the results depend on the processing

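Over all 7 libraries no gene was called by limma, edgeR or any alternative run except DESeq2 (107) and the length slope as a covariate (127), and the median of the members was 0.072 with that covariate. The covariate also turned Stt3a to 0.015, Stt3b to 0.036 and Ost4 to -0.046, and Rpn2 was -0.046 with it, -0.015 with TMM scaling, -0.14 with quantile scaling, -0.0060 with edgeR and -0.015 with summed FPKM. With each library left out, Stt3a ranged from -0.10 to 0.050 and Rpn2 from -0.078 to 0.066, while Stt3b ranged from -0.71 to -0.28, Ost4 from 0.29 to 0.81, Dad1 from 0.42 to 0.88, Ddost from 0.19 to 0.41, Tmem258 from 0.43 to 0.92 and Krtcap2 from 0.40 to 0.89. Of the values of single members, Tmem258, Krtcap2 and ratios in this comparison, 198 were counted as the same and 15 changed direction. For a gene, the same meant an unchanged direction and side of the threshold, and none of these genes was called in any run. For a ratio, which has no test, it meant a shift smaller than the SD within the groups. Against wild-type 1 and 2, limma called 51 genes, 22 with quantile scaling, 21 with edgeR, 287 with DESeq2 and 0 to 769 with 1 library left out. Ost4 turned to 0.020 with edgeR and 0.027 with DESeq2. With 1 library left out, the differences against wild-type 1 and 2 were -0.12 to 0.10 for Stt3a, -0.095 to 0.18 for Stt3b, -0.19 to 0.013 for Rpn2, -0.085 to 0.035 for Ddost, -0.12 to 0.33 for Dad1, -0.31 to 0.22 for Ost4, -0.043 to 0.32 for Ostc, -0.098 to 0.24 for Tusc3, -0.17 to 0.32 for Tmem258 and -0.23 to 0.25 for Krtcap2, so only Rpn1 (0.14 to 0.48) and Magt1 (0.16 to 0.29) kept their sign. Against wild-type 3 and 4, the genes called ranged from 1483 to 8760 and the median of the members from 0.43 to 0.66 with 1 library left out, and Stt3a from -0.14 to 0.068. With quantile scaling that median was 0.35 and Rpn2 was -0.16, and since the median of all genes moved to 0.10, the members stood 0.25 above it. Between the wild-type pairs, quantile scaling gave the members a median of -0.25, which is -0.14 relative to all genes, and Rpn2 0.036. With 1 library left out there, the median ranged from -0.59 to -0.26, Stt3a from -0.087 to 0.14, Rpn1 from -0.55 to 0.027 and Magt1 from -0.15 to 0.019. Of the transcripts, 3 were called with no filter and 0 to 1 with 1 library left out. The cause of these changes was not tested. No paired analysis was possible because the groups share no replicate numbers in the labels. With 3 and 4 libraries, or 3 and 2, a difference the size of that of Magt1 was not resolved; the lowest normalized count of any member in a library was 974.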

Other observations

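For some subunits, the transcript given the highest FPKM was a form without an annotated open reading frame. For Rpn2 the transcript with the most FPKM was a processed transcript of 2314 nucleotides, with 123 to 156 FPKM over the 7 libraries, beside 29.5 to 40.3 for the protein-coding form of 2756 nucleotides. For Stt3a it was a processed transcript of 858 nucleotides, at 41.0 to 53.0 FPKM, beside 35.7 to 44.6 for the protein-coding form of 5867 nucleotides. Rpn1 had its most FPKM in a protein-coding form of 3633 nucleotides (76.0 to 149.9). Magt1 had over 99.4% of its FPKM in 1 protein-coding form of 1608 nucleotides in each library. Stt3b and Ddost are listed with 1 transcript each. How Cufflinks divides reads between such overlapping forms was not tested here, and none of these transcripts was called between the groups.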
